A study of Homo sapiens with 12 samples.

Results

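NRF2, encoded by NFE2L2, its negative regulator KEAP1 and 7 antioxidant genes that NRF2 is known to activate were described across 4 treatment groups. The cells were of a line labelled as gastric cancer. The 7 target genes were GCLC, GCLM, SLC7A11, NQO1, AKR1C1, AKR1C2 and AKR1C3. The genes were found by symbol among the 60623 genes of the deposited count matrix, and all 9 were found and passed the filter on low counts. NUGC-4, an established line labelled as diffuse gastric cancer with the genotype WT, was grown as control or treated for 24 h. The treatments were 1 µM IN10018, 1 µM crizotinib (spelled Criozotinib in some labels), or both drugs at 1 µM each, and each of the 4 groups had 3 RNA sequencing libraries. IN10018 is an inhibitor of focal adhesion kinase, and crizotinib inhibits the receptor kinases MET, ALK and ROS1. The labels do not say what the control cells received. They also do not say whether libraries with the same treatment were grown separately, and each p-value below therefore reflects variation among these libraries, which may be technical.

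NRF2 is a transcription factor that switches on genes against oxidative and electrophilic stress. In unstressed cells KEAP1 binds the NRF2 protein and brings it to a CUL3 ubiquitin ligase, so that the protein is degraded soon after it is made. When reactive molecules modify KEAP1, NRF2 accumulates, enters the nucleus, pairs with a small MAF protein and binds antioxidant response elements near its targets. NRF2 is therefore controlled to a large degree at the protein level, which read counts do not measure.

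With crizotinib, alone or with IN10018, the target genes moved in opposite directions. NFE2L2 and SLC7A11, the cystine importer gene, were lower in both crizotinib-treated groups, whereas AKR1C1, AKR1C2 and AKR1C3, which encode aldo-keto reductases, were higher. Against control, crizotinib alone raised 3 and lowered 2 of the 9 genes (edgeR quasi-likelihood test, Benjamini-Hochberg adjusted p under 0.05 over the 17096 genes tested), while 37.6% of all tested genes were called in that comparison, 20.0% as higher and 17.6% as lower. The combination raised 4 and lowered 4 of the 9 against control, where 62.8% of all tested genes were called, 33.7% as higher and 29.1% as lower. Of the 9 genes, 0 were called with IN10018 alone, where 0.503% of all tested genes were called (0.345% higher, 0.158% lower). At an unadjusted p under 0.05, 1886 genes passed in that comparison. The tools DESeq2 and limma-voom also called 0 of the 9 with IN10018, where they called 1.02 and 0.369% of all tested genes. The share over all genes depended on the fit. It was 13.9% with only the control and IN10018 libraries and 9.04% with a covariate for the leading within-group axis, each with 0 of the 9 called. The median log2 change of the 9 genes was -0.05 with crizotinib and 0.04 with the combination, beside 0.08 and 0.10 over all tested genes. Without crizotinib library 2, which stood apart from its group, crizotinib alone raised 3 and lowered 1 of the 9, where 20.9% of all tested genes were called, and the combination raised 4 and lowered 4, where 65.2% were.

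**Figure D1:**
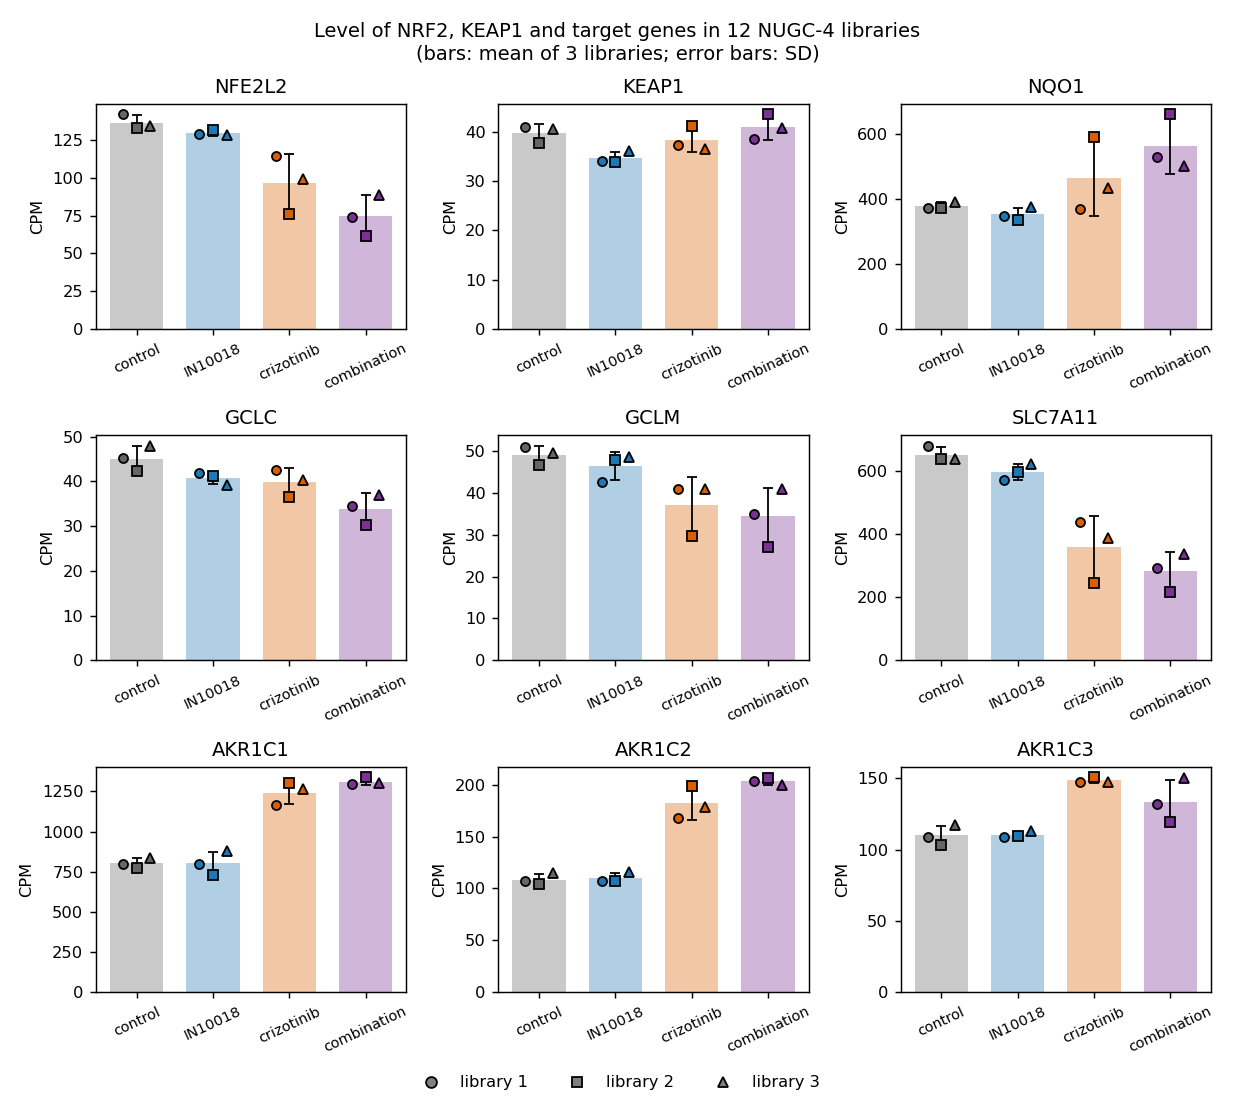
Level of each of the 9 genes in CPM (counts scaled by the TMM-adjusted library total, linear axis from 0) by treatment group. Points are single libraries with the shape giving the library number, bars are means of 3 libraries and error bars are SD. NFE2L2 and SLC7A11 are lower in all 6 crizotinib-treated libraries than in the other 6, and AKR1C1, AKR1C2 and AKR1C3 are higher in all 6. The share of all tested genes that separate in this way was not counted.

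Total reads ran from 13691844 to 20489708 per library. Reads from mitochondrially encoded genes made up 10.997 to 12.7% of the control and IN10018 libraries. The share was 13.3, 5.21 and 9.46% in crizotinib libraries 1 to 3 and 6.99, 4.28 and 6.62% with the combination. Crizotinib library 2 lay at 57.8 on the first principal component (67.2% of the variance), against -4.61 and 10.3 for crizotinib libraries 1 and 3 and 37.8 to 91.4 for the combination. In the crizotinib-treated groups the change of a gene also followed the base composition of its transcript. For the combination against control, the median log2 change was -0.53 over the fifth of genes with the lowest GC content and 0.78 over the fifth with the highest. Because of this, changes are also given below with an offset for GC content and transcript length, which was chosen after seeing the data. Of 12 gastric and epithelial markers, 5 were read at 1 CPM or more, led by KRT8 at 1514 and KRT18 at 726 CPM on average, whereas KRT19, ESRP1 and TFF2 had 0 reads. The summed level of the 12 ran from 1977 to 2108 CPM in control and from 2357 to 3588 CPM with the combination. The description label names adipogenic differentiation, and the adipocyte markers ADIPOQ and LPL had 0 reads in the 12 libraries, while FABP4 stood at 84.7 and PPARG at 31.2 CPM. The summed level of the 8 adipocyte markers ran from 115 to 123 CPM in control and from 148 to 192 CPM with the combination. That of 4 endothelial markers ran from 18.1 to 21.9 CPM in control and from 33.9 to 41.3 CPM with the combination. Most of it came from PECAM1 and CDH5, at 14.8 and 11.9 CPM on average, while KDR had 0 reads. That of 6 leukocyte markers ran from 19.1 to 23.6 and from 28.5 to 33.8 CPM, nearly all of it CD14, with CD3E at 0 reads. COL3A1, a fibrillar collagen gene of fibroblasts, averaged 5770 CPM, above KRT8, while COL1A2 averaged 0.0587 CPM. The summed level of 6 fibroblast markers ran from 5674 to 6251 CPM in control and from 5074 to 5999.6 CPM with the combination. The identity of the line and the part of these markers in the changes of the 9 genes were not tested. In such bulk libraries, fewer cells of a type and less RNA per cell cannot be told apart.

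NFE2L2 (ENSG00000116044, GRCh38 chr2:177227595-177392697, minus strand) encodes NRF2 itself. It was read at 142, 133 and 134 CPM in control libraries 1 to 3 and at 129, 132 and 129 CPM with IN10018. With crizotinib it was read at 114, 76.3 and 99.3 CPM, and with the combination at 74.0, 61.3 and 88.8 CPM. All 6 crizotinib-treated libraries lay below all 6 others, and library 2 was the lowest in both of those groups. Here and below, the share of all tested genes whose libraries separate in such a way was not counted. The log2 change was -0.50 ± 0.15 (SE) with crizotinib (edgeR adjusted p = 0.0192) and -0.87 ± 0.15 with the combination (adjusted p = 0.000279), which corresponds to 1.83-fold lower with both drugs. With IN10018 alone the log2 change was -0.07, with a 95% interval from -0.39 to 0.24 (edgeR adjusted p = 0.884). This interval, like the others given here, rests on a spread estimated over all 4 groups. The SD of NFE2L2 was 4.84 CPM in control and 1.76 with IN10018, against 19.2 with crizotinib and 13.8 with the combination. The crizotinib call was lost without crizotinib library 2 (-0.35, edgeR adjusted p = 0.0561) and without control library 1 (-0.45, adjusted p = 0.0788), whereas the call for the combination held in all 24 alternatives. With the offset for GC content and length the NFE2L2 changes were -0.49 and -0.78. NFE2L2 shares 1054 exon bases with AC019080.1 on the same strand, a gene with 395 reads over the 12 libraries against 21579 for NFE2L2. It also shares 54 exon bases with AGPS on the opposite strand, a gene with 21482 reads, and the strand setting of the counting is not given in the sources used here.

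KEAP1 (ENSG00000079999, chr19:10486120-10503741, minus strand), the adaptor that delivers NRF2 for degradation, varied little. Its levels were 40.9, 37.7 and 40.5 CPM in control, 34.1, 33.8 and 36.1 CPM with IN10018, 37.3, 41.2 and 36.5 CPM with crizotinib and 38.5, 43.5 and 40.7 CPM with the combination. The IN10018 libraries were the 3 lowest of the 12, and the other 3 groups overlapped. No KEAP1 change was called: -0.20 ± 0.10 on the log2 scale with IN10018 (edgeR adjusted p = 0.496), -0.05 with crizotinib (95% interval -0.26 to 0.16) and 0.04 with the combination (95% interval -0.17 to 0.25). KEAP1 transcripts have a GC content of 60.3%, above 87.3% of tested genes. With the offset for GC content and length, which turned the sign of the combination change, KEAP1 was called lower with crizotinib (-0.47, edgeR adjusted p = 0.00273) and with the combination (-0.59, adjusted p = 0.00013). Whether KEAP1 mRNA fell therefore depends on whether that offset is used.

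Since NRF2 targets are recognised through antioxidant response elements, windows from 250 bases before to 50 after the annotated start were searched on both strands in the RefSeq promoter table (GRCh38.p14). The table held 11 windows for 8 of the 9 genes, with a pair of windows each for NFE2L2, KEAP1 and AKR1C3 and none for SLC7A11. The core TGACNNNGC was present in 13.3% of all 35116 windows, and the AP-1 site TGANTCA in 7.71%. Matches to the core stood in the second KEAP1 window, which has 2, and in the GCLM window, which has 1. The AP-1 site was in 0 of the 11 windows. The matches are shown with neighbouring bases because KEAP1 and GCLM share one of them, with the core in capitals, 5′ to 3′ on the strand of the gene. The KEAP1 stretches lie at chr19:10502813-10502829 and chr19:10502790-10502806, in the annotated 5′ UTR of a KEAP1 transcript, and the GCLM stretch at chr1:93909452-93909520, all on the minus strand.
KEAP1 upstream element: attgTGACACGGCgggc
KEAP1 downstream element: ctctGCTTAGTCAtggt
GCLM element: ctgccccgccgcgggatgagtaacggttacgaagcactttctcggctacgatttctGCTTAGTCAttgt
The downstream KEAP1 element and the GCLM element both read TGACTAAGC on the opposite strand, and they begin 31 and 34 bases before the annotated start. With the combination GCLM was called lower and KEAP1 was not called, and with the offset for GC content and length KEAP1 was called lower (-0.59) and GCLM was not called (0.11). A match of letters is a description and not a bound site.

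GCLC and GCLM encode the catalytic and modifier subunits of glutamate-cysteine ligase, the first enzyme of glutathione synthesis. GCLC (ENSG00000001084, chr6:53497341-53616970) was read at 45.2, 42.2 and 47.9 CPM in control, 41.9, 41.3 and 39.2 CPM with IN10018, 42.7, 36.6 and 40.4 CPM with crizotinib and 34.6, 30.2 and 37.0 CPM with the combination. GCLM (ENSG00000023909, chr1:93885205-93909456) was read at 50.8, 46.5 and 49.5 CPM in control, 42.5, 47.9 and 48.6 CPM with IN10018, 40.9, 29.7 and 40.9 CPM with crizotinib and 35.04, 27.2 and 40.8 CPM with the combination. For both subunits every combination library lay below every control library, and library 2 was the lowest of its group in both crizotinib-treated groups. GCLC fell by 0.41 ± 0.11 on the log2 scale with the combination (edgeR adjusted p = 0.00449) and GCLM by 0.51 ± 0.15 (adjusted p = 0.00992). With crizotinib alone neither passed the threshold: GCLC was at -0.18 ± 0.11 (edgeR adjusted p = 0.195) and GCLM at -0.40 ± 0.15 (adjusted p = 0.0528). GCLM was called lower with crizotinib in 12 of 24 alternatives, among them DESeq2 (-0.46, adjusted p = 0.0223), limma-voom (-0.41, adjusted p = 0.0466) and leaving out crizotinib library 1 (-0.46, edgeR adjusted p = 0.0404). It was not called without crizotinib library 2 (-0.26, edgeR adjusted p = 0.179) or with the offset for GC content and length (-0.02, adjusted p = 0.848). GCLM has a GC content of 37.3%, above only 6.23% of tested genes, and GCLC one of 44.3%. With the offset for GC content and length the combination changes were -0.14 for GCLC (edgeR adjusted p = 0.129) and 0.11 for GCLM (adjusted p = 0.258), and both calls ended. They also ended when libraries were scaled by their totals, at -0.23 and -0.33.

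SLC7A11 (ENSG00000151012, chr4:138164097-138242349, minus strand) encodes xCT, the transporter that brings in cystine for glutathione synthesis in exchange for glutamate. It was read at 680.3, 640.3 and 638 CPM in control and at 571, 597 and 622 CPM with IN10018. With crizotinib the levels were 440.5, 247 and 390 CPM, and with the combination 293, 217 and 337 CPM. All 6 crizotinib-treated libraries lay below all 6 others, with library 2 again the lowest of each crizotinib-treated group. Without an offset SLC7A11 had the largest fall of the 9 genes, by 0.86 ± 0.18 on the log2 scale with crizotinib (edgeR adjusted p = 0.00546) and by 1.21 ± 0.19 with the combination (adjusted p = 0.000163), or 2.31-fold. With IN10018 alone its change was -0.13, with a 95% interval from -0.52 to 0.26. Without crizotinib library 2 the crizotinib change was -0.65 (edgeR adjusted p = 0.00613). SLC7A11 transcripts are long and poor in GC, at 35.4%, above only 2.54% of tested genes. With the offset for GC content and length the changes were -0.40 with crizotinib (edgeR adjusted p = 0.00308) and -0.44 with the combination (adjusted p = 0.000448), so both calls held, at smaller values than without it and smaller in size than those of NFE2L2 and KEAP1. SLC7A11 shares 865 exon bases with SLC7A11-AS1 on the opposite strand, whose 1789 reads over 12 libraries equal 1.92% of those of SLC7A11.

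NQO1 (ENSG00000181019, chr16:69706996-69726951, minus strand), a quinone reductase widely used as a readout of NRF2 activity, was read at 374, 371 and 391 CPM in control. It stood at 348, 335 and 375 CPM with IN10018, 368, 591 and 433 CPM with crizotinib, and 528, 661 and 500.2 CPM with the combination. All 3 combination libraries lay above all control and IN10018 libraries. In the crizotinib group library 1 lay below the control libraries and library 2 far above them. NQO1 rose by 0.57 ± 0.15 on the log2 scale with the combination (edgeR adjusted p = 0.00491), or 1.49-fold, and this call held in all 24 alternatives. With crizotinib alone the change was 0.29 ± 0.15 (edgeR adjusted p = 0.135). It was 0.08 without crizotinib library 2 (adjusted p = 0.666). It was called in 3 of 24 alternatives, at 0.45 without crizotinib library 1 (edgeR adjusted p = 0.0173), at 0.42 with library totals (adjusted p = 0.0478) and at 0.27 with the leading within-group axis as a covariate (adjusted p = 0.00129). The offset for GC content and length left the combination change at 0.66 (edgeR adjusted p = 0.00474).

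**Figure D2:**
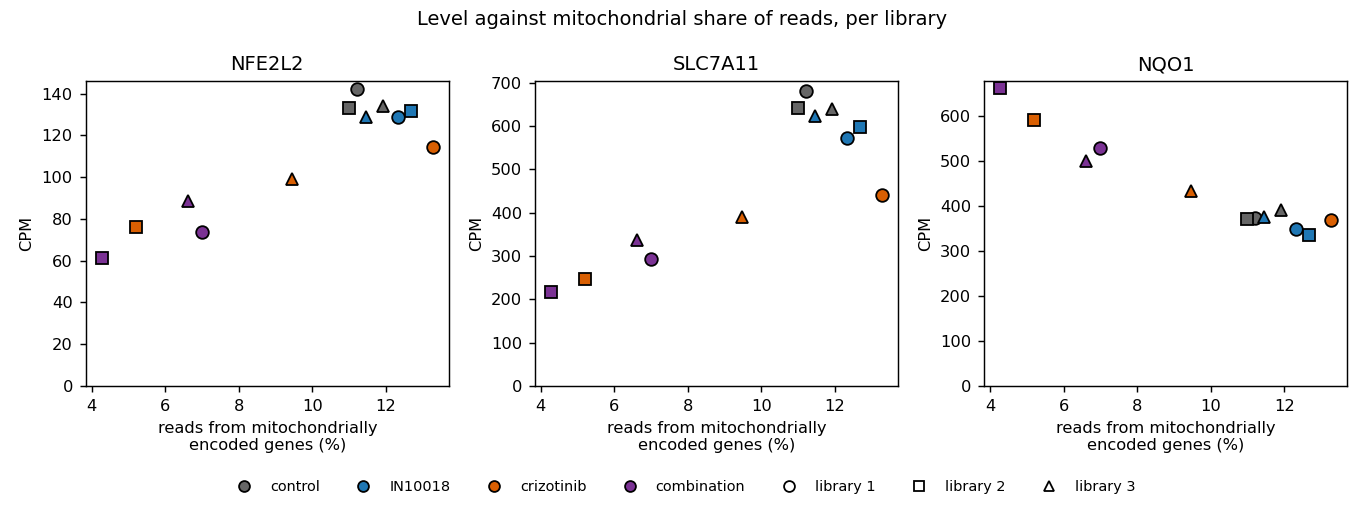
Level in CPM (linear axis from 0) of NFE2L2, SLC7A11 and NQO1 in each of the 12 libraries against the percentage of reads from mitochondrially encoded genes. Colour gives the group and shape the library number. The libraries numbered 2 of crizotinib and combination have the lowest mitochondrial shares, 5.21 and 4.28%, and the highest NQO1 levels, 591 and 661 CPM.

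The library order within the crizotinib-treated groups was thus alike for several of the 9 genes. Library 2 had the lowest NFE2L2, GCLC, GCLM and SLC7A11 and the highest NQO1, KEAP1, AKR1C1 and AKR1C2 in both groups. It also had the lowest mitochondrial share. AKR1C3 was highest in library 2 with crizotinib and lowest in library 2 with the combination. The part of the mitochondrial share in these results was not tested. When mitochondrially encoded genes were removed before scaling, NFE2L2 was at -0.54 with crizotinib and -0.90 with the combination, and NQO1 at 0.54 with the combination, all called.

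AKR1C1, AKR1C2 and AKR1C3 lie side by side on chromosome 10 and encode aldo-keto reductases that reduce carbonyls, ketosteroids and prostaglandins with NADPH. AKR1C1 (ENSG00000187134, chr10:4963253-4983283, plus strand) was read at 797, 773 and 837 CPM in control and at 798, 729.9 and 876 CPM with IN10018. It was read at 1164, 1299.8 and 1265 CPM with crizotinib and at 1295, 1337 and 1299.7 CPM with the combination. The crizotinib-treated libraries were all above the others, and the combination libraries were close to one another. AKR1C1 rose by 0.63 ± 0.10 on the log2 scale with crizotinib (edgeR adjusted p = 0.00134) and by 0.71 ± 0.10 with the combination (adjusted p = 8.63e-05), or 1.55-fold and 1.63-fold. With IN10018 alone the change was -0.0024, with a 95% interval from -0.21 to 0.20.

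AKR1C2 (ENSG00000151632, chr10:4987400-5018031, minus strand) was read at 107, 104 and 115 CPM in control, 107, 107 and 116 CPM with IN10018, 168, 199 and 179 CPM with crizotinib, and 204, 207 and 200.03 CPM with the combination. Its rise was the largest of the 9 genes, 0.75 ± 0.09 on the log2 scale with crizotinib (edgeR adjusted p = 0.000506) and 0.91 ± 0.09 with the combination (adjusted p = 3.71e-05), or 1.68-fold and 1.88-fold. The combination libraries were all above the crizotinib libraries, which were all above the rest. The ratio of AKR1C2 to AKR1C1 was 0.135 ± 0.0016 (SD, n = 3) in control, 0.138 ± 0.0079 with IN10018, 0.147 ± 0.0060 with crizotinib and 0.155 ± 0.0018 with the combination. AKR1C1 and AKR1C2 are near-identical copies, and 26.1% of the 100-base stretches of AKR1C2 coding transcripts also occur in AKR1C1. How reads that match both were counted is not given in the sources used here, so the split between these copies is uncertain.

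AKR1C3 (ENSG00000196139, chr10:5035354-5107686, plus strand) was read at 109, 104 and 117 CPM in control, 109, 109 and 113 CPM with IN10018, 148, 151 and 148 CPM with crizotinib, and 132, 119 and 150.01 CPM with the combination. It differs from its neighbours in having its highest mean with crizotinib alone, although the combination libraries overlapped the crizotinib libraries. AKR1C3 rose by 0.44 ± 0.10 on the log2 scale with crizotinib (edgeR adjusted p = 0.00691) and by 0.28 ± 0.10 with the combination (adjusted p = 0.0228). The combination call was lost in 8 of 24 alternatives, among them without combination library 3 (0.20, edgeR adjusted p = 0.0916), without each control library (adjusted p from 0.067 to 0.105) and with DESeq2 (0.21, adjusted p = 0.102). With the offset for GC content and length AKR1C1 was at 1.26, AKR1C2 at 1.38 and AKR1C3 at 0.41 with the combination, all called.

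The sequences upstream of the AKR1C genes are shown to describe how alike the copies are, and any part of them in the changes was not tested. Each is the part aligned with the AKR1C1 window before its first annotated UTR, 5′ to 3′ on the strand of the gene, from RefSeq GRCh38.p14. Capitals mark bases that are not identical to AKR1C1. They lie at chr10:4963165-4963252 on the plus strand for AKR1C1, chr10:5004024-5004107 on the minus strand for AKR1C2 and chr10:5048539-5048622 on the plus strand for AKR1C3.
AKR1C1: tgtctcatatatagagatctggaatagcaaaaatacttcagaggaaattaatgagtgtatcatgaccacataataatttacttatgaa
AKR1C2: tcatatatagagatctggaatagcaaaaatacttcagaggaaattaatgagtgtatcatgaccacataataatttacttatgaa
AKR1C3: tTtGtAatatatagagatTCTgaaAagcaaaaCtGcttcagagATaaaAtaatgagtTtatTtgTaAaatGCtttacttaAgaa
AKR1C2 has 0 differing bases over its 84, and AKR1C3 has 19 over its 84. Over the 250 bases before the start, AKR1C1 and AKR1C2 were identical at 245 of 246 aligned bases (99.6%), and AKR1C1 and AKR1C3 at 76.8 or 79.1%, depending on which AKR1C3 window was used. The antioxidant response element core and the AP-1 site were both missing from these windows, which says only that these letters are not in them.

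**Figure D3:**
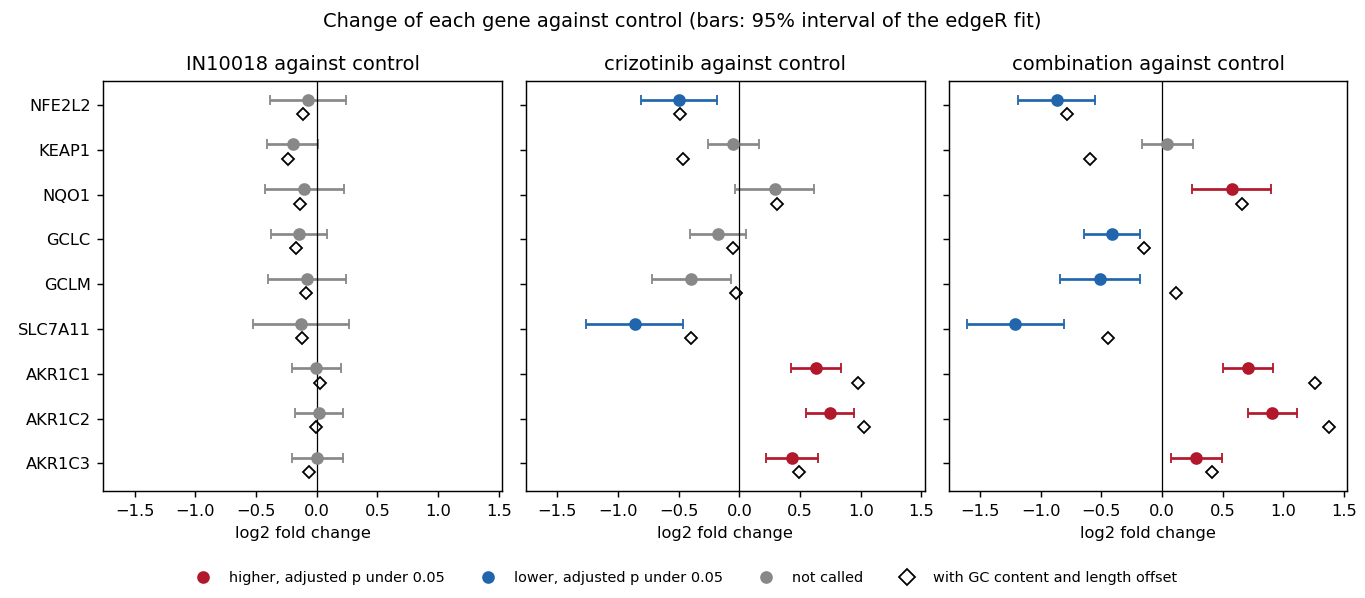
Log2 fold change of each of the 9 genes against control for IN10018, crizotinib and the combination. Filled points are the edgeR estimates over 12 libraries with 95% intervals (red higher, blue lower, grey not called), and open diamonds the estimates with the offset for GC content and transcript length. With the combination, AKR1C2 is at 0.91 and SLC7A11 at -1.21, while the diamonds for GCLM and KEAP1 lie on the other side of 0 from the points.

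Levels between genes are compared here per kb of all annotated exon sequence of a gene, and their order can change with the length used. That length was 8646 bases for GCLC, 5420 for GCLM and 4532 for AKR1C3. Their longest transcripts have 3813, 4857 and 1807 bases. In control, NQO1 stood highest at 116 ± 3.35 CPM per kb of exon, followed by AKR1C1 at 91.5 ± 3.66 and SLC7A11 at 67.7 ± 2.46. AKR1C3 (24.3 ± 1.54), NFE2L2 (22.8 ± 0.81) and AKR1C2 (16.8 ± 0.86) came next, and KEAP1 (10.6 ± 0.47), GCLM (9.03 ± 0.41) and GCLC (5.22 ± 0.33) were lowest. AKR1C3 and NFE2L2 lay within their spread of each other. With the combination SLC7A11 stood at 29.3 ± 6.29 CPM per kb, NQO1 at 173 ± 26.3 and AKR1C1 at 149.5 ± 2.61 CPM per kb. The ratio of NQO1 to SLC7A11 in CPM went from 0.580 ± 0.032 (SD, n = 3) in control and 0.591 ± 0.026 with IN10018 to 1.45 ± 0.83 with crizotinib and 2.11 ± 0.82 with the combination. With the combination NQO1 changed by 0.57 and SLC7A11 by -1.21 on the log2 scale. With the offset for GC content and length these changes were 0.66 and -0.44. Every crizotinib-treated library had a higher ratio of NQO1 to SLC7A11 than every other library, with 0.835 in crizotinib library 1 as the lowest and 3.04 in combination library 2 as the highest. The ratio of NFE2L2 to KEAP1 in CPM went the other way, from 3.44 ± 0.12 in control to 1.84 ± 0.39 with the combination. On the log2 scale of the fit that is a change of -0.91, and with the offset for GC content and length it was -0.19.

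The comparison of the combination with IN10018 asked what crizotinib added to IN10018. It shares the combination libraries with the comparison against control. Here 4 of the 9 genes rose and 4 fell, where 57.2% of all tested genes were called, 29.7% as higher and 27.5% as lower. AKR1C2 changed by 0.89 ± 0.09, AKR1C1 by 0.71 ± 0.10, NQO1 by 0.67 ± 0.15 and AKR1C3 by 0.28 ± 0.10 on the log2 scale (edgeR adjusted p from 0.000197 for AKR1C2 to 0.0277 for AKR1C3). SLC7A11 changed by -1.08 ± 0.19, NFE2L2 by -0.80 ± 0.15, GCLM by -0.43 ± 0.15 and GCLC by -0.27 ± 0.11 (edgeR adjusted p from 0.000536 for SLC7A11 to 0.0471 for GCLC). KEAP1, at 0.24 ± 0.10, lay just outside the threshold (edgeR adjusted p = 0.0504) although all its combination libraries were above all its IN10018 libraries. KEAP1 was called higher with library totals (0.35, edgeR adjusted p = 0.00837) and in 3 other alternatives, and lower with the offset for GC content and length (-0.36, adjusted p = 0.00764). That offset left GCLC at 0.03 and GCLM at 0.20, and ended both calls. When IN10018 library 2, IN10018 library 3 or combination library 1 was left out, 5 of the 9 genes were called. In those settings 47.9, 47.8 and 50.2% of all tested genes were called, and GCLC, GCLM and AKR1C3 missed the threshold.

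The comparison of the combination with crizotinib asked what IN10018 added to crizotinib. Of the 9 genes, 0 were called by edgeR, where 0.0117% of all tested genes were called (0% higher, 0.0117% lower) and 3697 genes had an unadjusted p under 0.05. NFE2L2 was at -0.37 on the log2 scale (95% interval -0.69 to -0.06, edgeR adjusted p = 0.213), SLC7A11 at -0.35 (-0.74 to 0.05) and NQO1 at 0.28 (-0.05 to 0.60). AKR1C2, at 0.16 (-0.04 to 0.36), was the only gene of the 9 whose combination libraries all lay above the crizotinib libraries. These values depended on crizotinib library 2. Without it 3 of the 9 genes were called, where 32.3% of all tested genes were called: NFE2L2 at -0.52 (edgeR adjusted p = 0.00728), SLC7A11 at -0.56 (adjusted p = 0.00767) and NQO1 at 0.49 (adjusted p = 0.00812). The same 3 genes were called when both libraries numbered 2 were left out, at -0.39, -0.40 and 0.36, where 25.2% of all tested genes were called. The labels do not say what the replicate numbers mark. From residual correlations in these same data, the numbers were taken to pair the libraries of these groups. A fit of these 6 libraries with the number as a block called 23.1% of all tested genes and 2 of the 9, NFE2L2 at -0.36 (edgeR adjusted p = 0.0183) and SLC7A11 at -0.32 (adjusted p = 0.0403), with NQO1 at 0.31 (adjusted p = 0.0532). This block was chosen after seeing the data, so its p-values may be too small. With the block over all 12 libraries, 0 of the 9 were called, where 0.55% of all tested genes were.

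The interaction, the departure of the combination from the sum of the single-drug log2 changes, was called for 0 of the 9 genes, where 0.0702% of all tested genes were called (0.0585% higher, 0.0117% lower) and 1367 had an unadjusted p under 0.05. NQO1 had the largest value, 0.38 ± 0.21 (95% interval -0.08 to 0.84, edgeR adjusted p = 0.6), followed in size by NFE2L2 at -0.30, KEAP1 at 0.29 and SLC7A11 at -0.22. Without crizotinib library 2, NQO1 was called at 0.59 (edgeR adjusted p = 0.0472), where 4.61% of all tested genes were called, and without both libraries numbered 2 at 0.47 (adjusted p = 0.0172), where 11.1% were. In the main fit of all 12 libraries, the 95% interval of the interaction included 0 for each of the 9 genes.

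Other genes of the pathway were counted in 6 lists for the combination against control, where 62.8% of all tested genes were called (33.7% higher, 29.1% lower). With the offset for GC content and length 54.7% were called (25.4% higher, 29.3% lower). Of 15 tested of 16 listed regulators and partners of NRF2, 5 rose and 6 fell (median log2 change -0.03), and with the offset for GC content and length 3 rose and 7 fell. CUL3, the ligase scaffold that acts with KEAP1, was read at 171, 163 and 179 CPM in control and at 75.3, 58.4 and 87.4 CPM with the combination, a log2 change of -1.21 ± 0.16 (edgeR adjusted p = 8.09e-05), or -0.51 with the offset. GSK3B, a kinase that marks NRF2 for a second ligase, changed by -1.12 ± 0.15, and PALB2, a DNA repair protein that can compete for KEAP1, by -1.25 ± 0.17. The small MAF partner MAFG went the other way, by 0.85 ± 0.13 (edgeR adjusted p = 0.000136), from 52.6 ± 4.22 CPM (SD, n = 3) in control to 94.8 ± 7.54 CPM. With the offset GSK3B was at -0.55, PALB2 at -0.90 and MAFG at 0.56, all called.

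Of 11 tested of 16 listed genes of glutathione use and cystine transport, 5 rose and 1 fell with the combination, against 2 and 2 with the offset for GC content and length. GPX4, which reduces lipid peroxides with glutathione, changed by 1.16 ± 0.19 on the log2 scale (edgeR adjusted p = 0.000227) without the offset and by 0.05 with it (adjusted p = 0.732). The glutathione transferase genes GSTM4 and GSTM3 changed by 0.87 ± 0.15 and 0.46 ± 0.13, and by 0.72 and 0.69 with the offset. GSTP1 changed by 0.54 ± 0.15 without the offset and by -0.44 with it.

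Among 17 tested of 23 listed detoxification genes, 8 rose and 4 fell with the combination, and 4 rose and 5 fell with the offset. HMOX1, the heme-degrading enzyme that NRF2 and BACH1 both control, was read at 4.71, 4.96 and 3.78 CPM in control and at 9.40, 13.2 and 8.14 CPM with the combination. The groups did not overlap, and the log2 change was 1.19 ± 0.22 (edgeR adjusted p = 0.000508), or 0.45 with the offset (adjusted p = 0.0261). TXNRD1, thioredoxin reductase, went from 428, 426 and 456 CPM to 234, 188 and 260 CPM, a log2 change of -0.94 ± 0.14 (edgeR adjusted p = 0.000142), or -0.66 with the offset. FTL, the ferritin light chain, changed by 0.79 ± 0.12 and the biliverdin reductase gene BLVRB by 0.95 ± 0.19, but with the offset they were at -0.09 and 0.08 and not called.

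**Figure D4:**
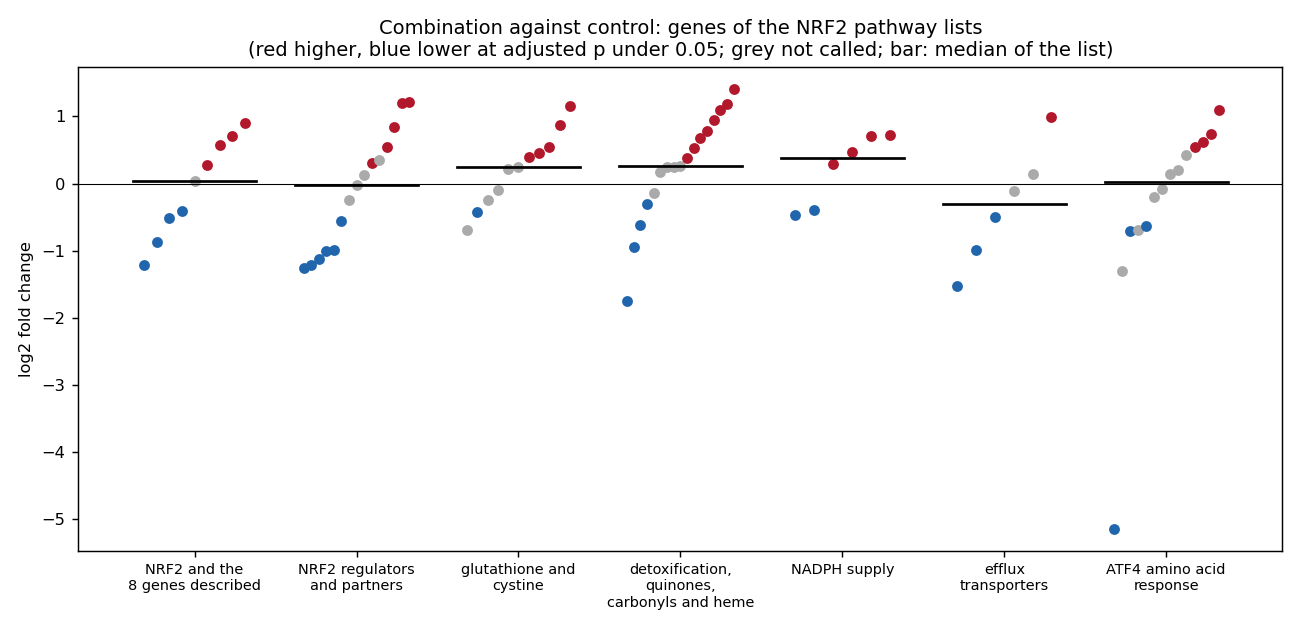
Log2 fold change for the combination against control of the 9 genes described and of the tested genes in 6 lists of NRF2-related genes. Each point is a gene, red where higher and blue where lower at an edgeR adjusted p under 0.05 and grey otherwise, and black bars are medians of the lists. Every list holds called genes on both sides of 0, with ATF3 lowest at -5.15.

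All 6 genes of NADPH supply were called with the combination, 4 higher and 2 lower, and with the offset 1 was higher and 1 lower. The pentose phosphate enzymes TKT, TALDO1 and PGD changed by 0.72 ± 0.12, 0.71 ± 0.18 and 0.48 ± 0.11 on the log2 scale, and malic enzyme ME1 by -0.47 ± 0.14, whereas with the offset only TKT was still called among these 4 (0.58). Of 6 efflux transporters, 1 rose and 3 fell: ABCC3 by 0.99 ± 0.12, ABCC4 by -1.53 ± 0.24, ABCG2 by -0.99 ± 0.19 and ABCC1 by -0.49 ± 0.10. With the offset these were at 0.81, -1.06, -0.52 and -0.58, all called. ATF4, a stress transcription factor that also activates SLC7A11, heads a list of 14 amino acid response genes, of which 4 rose and 3 fell, against 1 and 7 with the offset. In that list ATF3 changed by -5.15 ± 0.26, DDIT3 by 1.10 ± 0.19, MTHFD2 by -0.72 ± 0.12 and PSAT1 by -0.63 ± 0.12. With the offset these were at -5.23, 0.62, -0.25 and -0.47, all called. Without crizotinib library 2, the combination raised and lowered 5 and 6 of the regulators, 6 and 2 of the glutathione genes, 10 and 4 of the detoxification genes, 4 and 2 of the NADPH genes, 1 and 3 of the transporters and 4 and 5 of the amino acid response genes. In that setting 65.2% of all tested genes were called (35.1% higher, 30% lower).

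With crizotinib alone, where 37.6% of all tested genes were called, 3 of the regulators rose and 6 fell, 3 and 0 of the glutathione genes, 8 and 2 of the detoxification genes, 2 and 0 of the NADPH genes, 1 and 3 of the transporters, and 4 and 3 of the amino acid response genes. Without crizotinib library 2, the detoxification count was 3 higher and 2 lower. In that setting 20.9% of all tested genes were called (10.1% higher, 10.7% lower). With IN10018 alone, 1 detoxification gene and 1 amino acid response gene were lower and 0 of the other list genes were called. There 0.503% of all tested genes were called. The amino acid response gene was ATF3 (-3.02 ± 0.21, edgeR adjusted p = 1.16e-05). The detoxification gene was FTH1, the ferritin heavy chain, which has many processed copies in the genome and was named after its value was seen. FTH1 was read at 47.7, 49.8 and 15.5 CPM in control and at 6.92, 7.12 and 7.79 CPM with IN10018. Its change of -2.37 (edgeR adjusted p = 0.0412) lost its call in 12 of 24 alternatives, among them limma-voom (adjusted p = 0.0841), the offset (0.0769) and leaving out crizotinib library 2 (0.11).

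For each of the 9 genes, the 3 most similar profiles among 12703 genes were found by Pearson's r of log2 CPM over the 12 libraries, which share the treatments, depth and base composition effects, so r is given as a measure of likeness only. NFE2L2 was most like WDR48, SOS1 and NCOA7 (r = 0.998 for each), and SLC7A11 most like LMAN1, CPEB4 and LRRC58 (r = 0.997 for each). NQO1 was nearest to WDR34 (0.995), GCLC to TRAM2-AS1 (0.97) and GCLM to PRELID3B (0.984). AKR1C1 and AKR1C2 were each other's nearest profile (0.991), followed by C1S for AKR1C1 (0.990) and PTGS1 for AKR1C2 (0.991). AKR1C3 was nearest to SDR16C5 (0.964), and KEAP1 to JUND (0.921).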

How the data were processed

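RNA sequencing counts were analysed for 12 NUGC-4 libraries, grouped by the treatment label into 4 groups of 3. The authors deposited whole read counts per gene, unnormalized. Per the submitters' processing notes, Trimmomatic, FastQC, HISAT2, featureCounts and DESeq2 were used with builds hg38 and GRCh38. Versions, annotation release and strand setting are not given in the sources used here. Per the labels' protocols, libraries were made with a directional kit.

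All 12 libraries entered 1 fit in edgeR 4.0.16 (R 4.3.3): TMM scaling, filterByExpr by group (minimum count 10), robust quasi-likelihood F test, Benjamini-Hochberg adjustment over 17096 genes, calls at adjusted p under 0.05. The SE is the absolute log2 change divided by the square root of F. Intervals are 95%, and the common biological coefficient of variation was 0.139. CPM are counts scaled by the TMM-adjusted library total, and per kb of GENCODE 29 exon length where genes are compared. The procedure was tested on simulated data.

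The 9 genes, the lists and the tests were chosen with earlier results of these data known. Named were the 9 genes, up to 4 called genes with the smallest p per list for the combination against control, and 3 similar genes each (mean log2 CPM of at least 1, prior count 2).

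Alternatives were DESeq2 1.42.0 size factors, scaling by library totals, testing without a filter or with a stricter one (1 CPM in 3 libraries and 100 reads), a replicate block, only the libraries compared, DESeq2, limma-voom (limma 3.58.1), both libraries numbered 2 of crizotinib and combination left out, a covariate for the leading within-group axis, mitochondrially encoded genes removed, and each library left out. Chosen after seeing the data were the GC content and length offset (GC content known for 98.65% of tested genes) and a block within crizotinib and combination.

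The labels do not say what replicate numbers mark. Residuals of same-numbered libraries correlated at 0.22, 0.62 and 0.27 between crizotinib and combination, so the numbers were taken to pair those groups, although crizotinib library 1 correlated more highly with combination library 3 (0.42). Over all group pairs, 8 of 18 same-number correlations were above 0.1. No libraries agreed within sampling noise.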

Additional observations from a re-analysis of the deposited data

How the results depend on the processing

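Over 54 changes (9 genes in 6 comparisons) and 25 alternatives, 38 of 1296 values lost a call, 39 gained one and 5 reversed. A value counted as reversed only if its sign turned and it was called in the main fit or the alternative. The other 1214 kept their side of the threshold. Uncalled values among them could change sign, as did GCLM for the combination against crizotinib (-0.27 to 0.14 over the alternatives). With only the libraries compared the interaction has no value, since it needs all 4 groups. SLC7A11, AKR1C1 and AKR1C2 kept their calls in all 24 alternatives for crizotinib and the combination against control and the combination against IN10018, as did NFE2L2 and NQO1 in the comparisons of the combination with control and IN10018. The 5 reversals came with the GC content and length offset: KEAP1 (-0.59) and GCLM (0.11) for the combination against control, and KEAP1 (-0.36), GCLC (0.0268) and GCLM (0.20) for the combination against IN10018. So did those of pathway genes: FTL (-0.0631) and GSTP1 (-0.29) for crizotinib against control, FTL (-0.0937), GSTP1 (-0.44) and TALDO1 (-0.0711) for the combination against control, and GSTP1 (-0.26) and ME1 (0.0548) for the combination against IN10018. The cause of the link to GC content was not tested.

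Of the 9 genes, the combination against crizotinib called 0, but 3 without both libraries numbered 2, 5 with the within-group axis, 2 with the replicate block in 6 libraries and 0 to 3 with a library left out. The shares of all tested genes called were 0.0117, 25.2, 35.8, 23.1 and 0.0113 to 32.3% in that order. The interaction called 0, but 1, 3 and 0 to 1 with those settings other than the block. Its shares of all tested genes were 0.0702, 11.1, 19.4 and 0.0113 to 4.61%. Crizotinib against control called 5, where 37.6% of all tested genes were called, and 8 with the axis, where 56.8% were. The combination against IN10018 called 8, where 57.2% were, and 5 to 9 with a library left out, where 44.2 to 60% were. The axis is taken from the residuals it then removes, so its p-values are too small. With library totals, the median of all genes moved by 0.123 for crizotinib and 0.179 for the combination against control and 0.113 for the combination against IN10018.

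Counts over all genes moved more. For IN10018 against control (86) they were 379 with no filter, 231 with the replicate block, 2193 with only the libraries compared, 181 with DESeq2, 864 without both libraries numbered 2, 1546 with the axis, 243 with the offset and 7 to 223 with a library left out. Crizotinib against control (6435) gave 9718 with the axis and 3138 to 7975 with a library left out. The combination against crizotinib (2) gave 1744 with no filter, 94 with the replicate block, 3790 with the block in 6 libraries, 21 with DESeq2, 4352 without both libraries numbered 2, 6120 with the axis and 2 to 5640 with a library left out. The interaction (12) gave 299 with no filter, 23 with the replicate block, 63 with DESeq2, 1917 without both libraries numbered 2, 3316 with the axis, 21 with the offset and 2 to 805 with a library left out.

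The replicate block over 12 libraries left the calls of the 9 genes at 0, 6, 8, 8, 0 and 0 in the 6 comparisons, with GCLM gained in crizotinib against control (-0.41, edgeR adjusted p = 0.0204). With that block 1.35, 43.3, 64.4, 59.9, 0.55 and 0.135% of all tested genes were called. KEAP1, GCLC and GCLM have the fewest reads of the 9 genes, down to 391 per library for GCLM.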
